A study of Mus musculus with 12 samples.

Results

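The comparison described here is the response of wild-type (WT) large peritoneal macrophages to ID8 tumour cells. It uses 6 of the 12 samples of the series, 3 challenged (WT ID8 1 to 3) and 3 naive (WT naive 1 to 3), chosen by genotype and treatment as the labels give them. All donors were female mice. The challenged mice received ID8 cells, a mouse ovarian tumour line, by intraperitoneal injection at 8 weeks of age, and macrophages were sorted 24 h later. The injected cells carried the fluorescent protein ZsGreen and ovalbumin (OVA), a model antigen. Macrophages of both groups were sorted as F4/80high MHCIIlow, and in the challenged mice only ZsGreen+ cells of that gate were kept. The comparison therefore measures challenge together with selection for uptake of tumour material, and ZsGreen- macrophages of challenged mice were not analysed here. The labels give neither an age for the naive mice nor a sham injection, and they do not say whether each library came from 1 mouse or from pooled mice, so p-values measure the spread between these libraries, which may be technical. The remaining 6 libraries, 3 naive and 3 challenged samples from mice without the receptor Tim4 (Tim4KO), enter the estimate of the spread and 1 closing comparison. RNA came from a low-input column kit, and the libraries from a PCR-amplifying mRNA kit (SMART-Seq mRNA LP).

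Large peritoneal macrophages are the resident macrophages of the serous cavity. They are seeded before birth, maintain themselves locally, depend on the transcription factor Gata6, and clear dying cells through receptors such as Tim4, which binds phosphatidylserine. When the cavity is disturbed they can adhere, form clots on the mesothelium and leave the fluid, and in the ovarian tumour setting they meet tumour cells early because those cells spread within the cavity. Engulfing a cell loads a macrophage with foreign protein, lipid, nucleic acid and iron, which lysosomes, the proteasome and lipid transporters then handle.

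Total counts in the 6 WT libraries ran from 8642994 (WT ID8 1) to 23170244 (WT ID8 3), so that a floor of 3 counts corresponded to 0.137 to 0.345 CPM, the normalised read count scaled with TMM factors. Levels below are CPM on that scale unless stated otherwise, and are not corrected for gene length. The defining macrophage genes were present: Adgre1 (F4/80) stood at 2569, 3111 and 3789 in naive and 3932, 6299 and 4009.6 in challenged libraries, and Timd4, which encodes Tim4, at 1178, 1279 and 1489 in naive and 1115, 1452 and 882 in challenged libraries, against 1.38 to 7.71 in the Tim4KO libraries. The 9 of them summed to 51392 to 55767 CPM in naive and 21335 to 25992 in challenged libraries, a fall that followed lysozyme (Lyz2), which went from 44067, 47382 and 46085 to 10729, 12599 and 14990.0 (log2 change -1.84, SE 0.15, edgeR adjusted p = 1.66e-06). Summed markers of other cells were low, and those of B cells (22.3 to 32.5 CPM in naive, 4.73 to 12.2 in challenged), mast cells and eosinophils (17.04 to 40.5 and 3.22 to 6.44), T and NK cells (6.61 to 8.99 and 4.15 to 5.75), fibroblasts and endothelium (10.4 to 24.0 and 4.65 to 8.98), and platelets and erythroid cells (4.14 to 12.01 and 2.15 to 3.60) were lower in every challenged library than in any naive one. So were 13 epithelial, mesothelial or tumour markers, at 6.81 to 27.7 CPM in naive and 1.64 to 5.87 in challenged cells, with Krt8 at 0.345, 0.0859 and 0 in the challenged libraries. Reads in olfactory and vomeronasal receptor genes, which macrophages are not known to use, moved the same way, from 296 to 716 CPM in naive to 220.2, 85.2 and 6.92 CPM in WT ID8 1, 2 and 3. These reads were summed over the 1413 of 1433 such genes with a mean of at most 1 CPM, using TMM factors of the unfiltered counts. In the Tim4KO libraries they stood at 233 to 402 CPM in naive cells and at 39.0, 319.5 and 263 in challenged ones. In bulk RNA, fewer cells of a type and less RNA per cell cannot be told apart.

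Of 15943 genes tested, 5067 (31.8%) differed between challenged and naive cells at an edgeR adjusted p under 0.05. Higher in challenged cells were 3105 (19.5%) and lower were 1962 (12.3%), and the median log2 change of all tested genes was -0.04. At least a 2-fold change was seen for 962 of the higher and 1257 of the lower genes. In 4782 of the called genes the challenged and naive libraries did not overlap, as in 7073 of all 15943 tested genes, called or not. The lower calls were split by level. Among 5827 genes under 5 CPM in both groups, 124 were called higher and 935 lower, with a median log2 change of -1.04. Among the 10116 genes that reached 5 CPM in a group, 2981 were called higher and 1027 lower, with a median of 0.19. The receptor reads described above were also lower in every challenged WT library than in any naive one. Their part in the low-level decreases was not tested. With that background as a covariate the calls numbered 3462, of which 2306 were higher and 1156 lower. Upper-quartile scaling, which shifted the all-gene median to -0.28, turned the split to 1799 higher and 3508 lower. DESeq2 called 2805 higher and 2908 lower. Without WT naive 3 the calls numbered 3362, and the lower calls numbered 1270, 1063, 3512 and 1129 without WT naive 1, WT naive 3, WT ID8 1 and WT ID8 2.

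**Figure D1:**
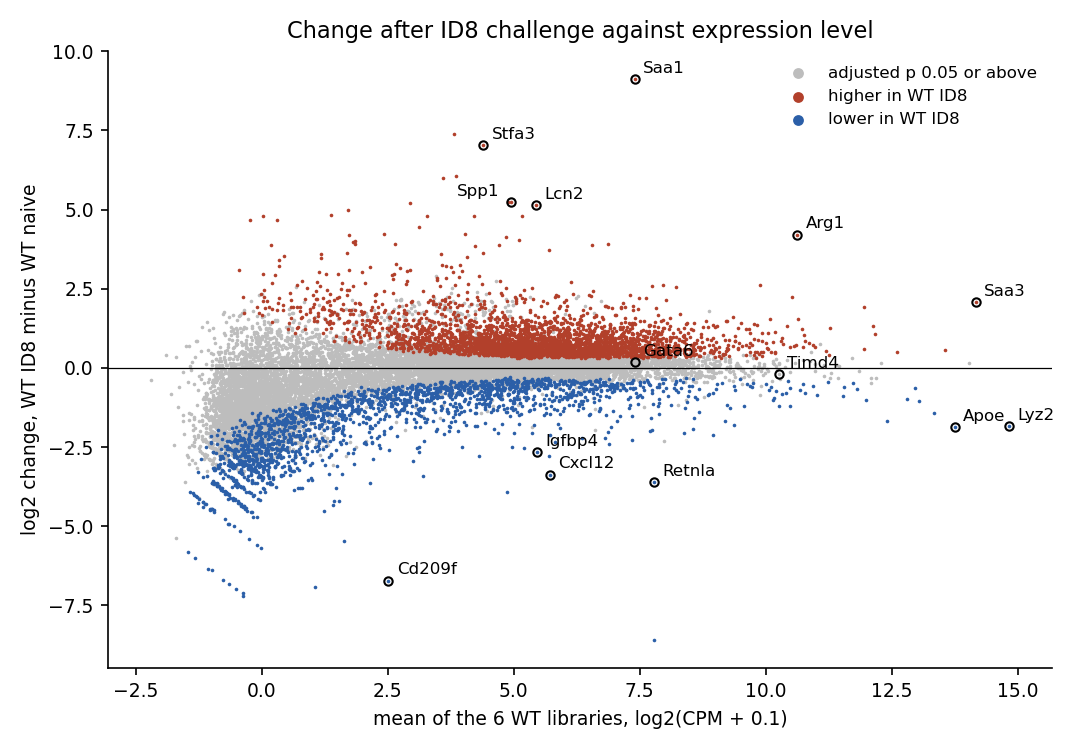
Log2 change of each tested gene (y axis, WT ID8 minus WT naive) against its mean level over the 6 WT libraries (x axis, log2 of CPM plus 0.1). Each point is a gene, red and blue where the edgeR adjusted p was under 0.05, and named genes are circled. The increases lie mostly at middle and high levels, while many of the decreases lie at the left, near the counting floor.

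The largest increases belonged to secreted defence proteins, matrix genes and chemokines. Saa1, an acute phase apolipoprotein, was at 0.325, 0.668 and 0.699 CPM in the naive and 185, 751 and 74.5 in the challenged libraries (log2 change 9.13, SE 1.07, edgeR adjusted p = 0.000443). Its near-identical neighbour Saa2 went from 0.433, 0.401 and 0.349 to 7.37, 32.6 and 4.11 (log2 change 5.19), and reads may have been split between the pair. Timp1, an inhibitor of matrix metalloproteinases, had 6 counts over the 3 naive libraries against 964 over the challenged ones (log2 change 7.40), a ratio of 147 with a 95% counting interval of 67.3 to 402. Stfa3, a stefin that inhibits cathepsins and has close copies in its cluster, rose from 0.217, 0.267 and 0.419 to 23.8, 45.2 and 55.9 CPM (log2 change 7.03). Each of these was higher in all 3 challenged libraries than in any naive one, but WT ID8 2 held the highest Saa1, Saa2 and Timp1. Without that library their log2 changes were 7.77, 3.85 and 6.55. Limma voom did not call Saa2 (adjusted p = 0.0556) or Timp1 (0.09696).

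Spp1 (osteopontin), a matrix protein and cytokine that tumour-associated macrophages are known for, stood at 1.73, 2.07 and 0.978 CPM in naive and 77.5, 70.3 and 32.2 in challenged libraries (log2 change 5.23, SE 0.64, edgeR adjusted p = 0.000322). Lcn2, which sequesters bacterial siderophores, went from 1.52, 2.94 and 2.44 to 48.2, 116 and 87.5 (log2 change 5.15, SE 0.31, edgeR adjusted p = 3.57e-07). Trem1, an activating receptor of myeloid cells, went from 3.14, 3.47 and 0.908 to 55.1, 61.2 and 89.6 (log2 change 4.80, SE 0.36, edgeR adjusted p = 3.12e-06). Lcn2 and Trem1 are also made by neutrophils. The sum of 10 neutrophil markers was 7.33 to 8.34 CPM in naive and 32.2, 29.04 and 12.2 CPM in WT ID8 1 to 3, most of it S100a8 (19.9, 24.8 and 9.13), while Ly6g, Camp and Ngp had at most 3 counts in every WT library. Their part in the result was not tested. Mall, a membrane protein of the MAL family (log2 change 6.05), Ly6a, also known as Sca-1 (4.78), and Ctla2a, a cathepsin inhibitor (5.98), completed the non-chemokine increases. Mall rested on WT ID8 3, with 4.49, 11.3 and 69.6 CPM in the challenged libraries, and its change was 4.22 without that library and 6.68 without WT naive 1. Ctla2a had a change of 4.72 without WT ID8 2. Limma voom called neither Mall (adjusted p = 0.081004) nor Ctla2a (0.0697).

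**Figure D2:**
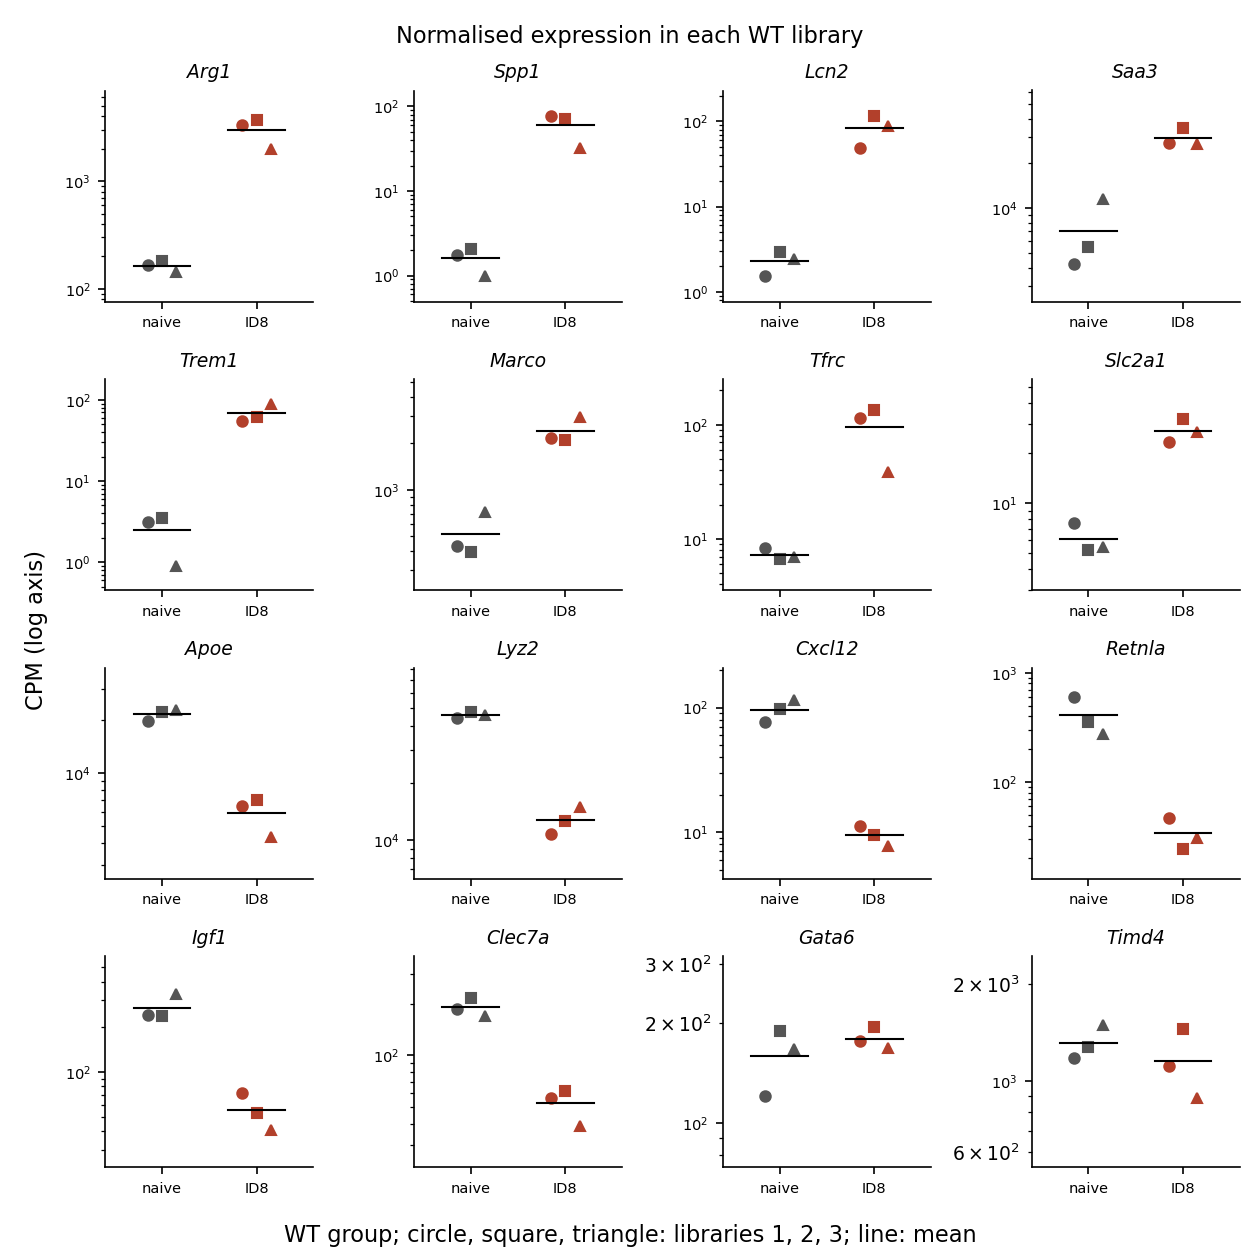
CPM of 16 genes on a log axis in the WT naive (grey) and WT ID8 (red) libraries, with a marker per library and a line at the group mean. The groups overlap in the panels of Gata6 and Timd4, which did not pass the test, and in no other panel.

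Among the largest decreases were C-type lectins and genes of the homeostatic macrophage. Cd209f, a lectin of the DC-SIGN family, fell from 19.8, 7.21 and 6.29 CPM to 4 counts over the 3 challenged libraries (log2 change -6.72), a ratio of naive over challenged of 104 with a 95% counting interval of 40.3 to 384. Its relatives Cd209a (24.5, 39.5 and 39.5 to 4.83, 3.27 and 6.66, log2 change -2.79) and Cd209b (41.8, 61.97 and 54.1 to 8.52, 10.2 and 9.08, -2.50) fell as well. Small peritoneal macrophages and dendritic cells express Cd209a too. The 11 markers of those cells, with monocytes, summed to 53.6, 68.4 and 61.2 CPM in naive and 28.9, 20.7 and 43.5 in challenged libraries. These sums include Cd209a itself, at the values given above, so they are no separate measure of those cells beside it. Ccr2, another of the markers, was at 4.66, 16.03 and 9.29 in naive and 10.4, 3.18 and 16.7 in challenged libraries. Without WT naive 1 the change of Cd209f was -6.01. Limma voom (adjusted p = 0.08298) and the background covariate (edgeR adjusted p = 0.0669) did not call it.

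Cxcl12, the chemokine that retains Cxcr4-bearing cells, fell with little spread within either group, at 76.5, 97.6 and 114 CPM in naive and 11.2, 9.45 and 7.71 in challenged libraries (log2 change -3.37, SE 0.21, edgeR adjusted p = 2.11e-07). Igfbp4, which binds insulin-like growth factors, fell from 82.6, 76.9 and 66.7 to 14.04, 10.7 and 11.5 (log2 change -2.65, SE 0.15, edgeR adjusted p = 1.3e-07). Sult1a1, a sulfotransferase (log2 change -2.79), and Cdkn1c, a cell cycle inhibitor (-2.93), fell with no overlap between the groups. Srpx (-2.66) and Rprm, a p53-dependent cell cycle inhibitor (-3.63), did so at lower levels. Rprm was -2.66 without WT naive 2, the library in which it was highest. Eps8l1, an actin regulator of the Eps8 family, had a change of -2.60, and of -3.81 without WT ID8 3. Slx1b varied widely among the naive libraries (111, 5.74 and 47.8). Its call was lost without WT naive 1 (edgeR adjusted p = 0.0863), WT naive 3 (0.0637), WT ID8 1 (0.0624), WT ID8 2 (0.101) or WT ID8 3 (0.0841). Without WT naive 1 its log2 change was -2.89. Cpa3 (log2 change -2.87) is a mast cell protease and fell with the mast cell markers given above.

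The 526 tested members of 25 gene lists place these genes among their pathways. The lists were chosen with earlier results of these data known, so their counts describe them and are read beside the 31.8% of all genes called. That share depended on level, and the lists were not matched for it. Of the 10116 genes that reached 5 CPM in a group, 2981 were called higher and 1027 lower. Complement and MHC class II (35.7% called in each) and growth factor and cytokine receptors (34.8%) were close to the share of all genes.

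**Figure D3:**
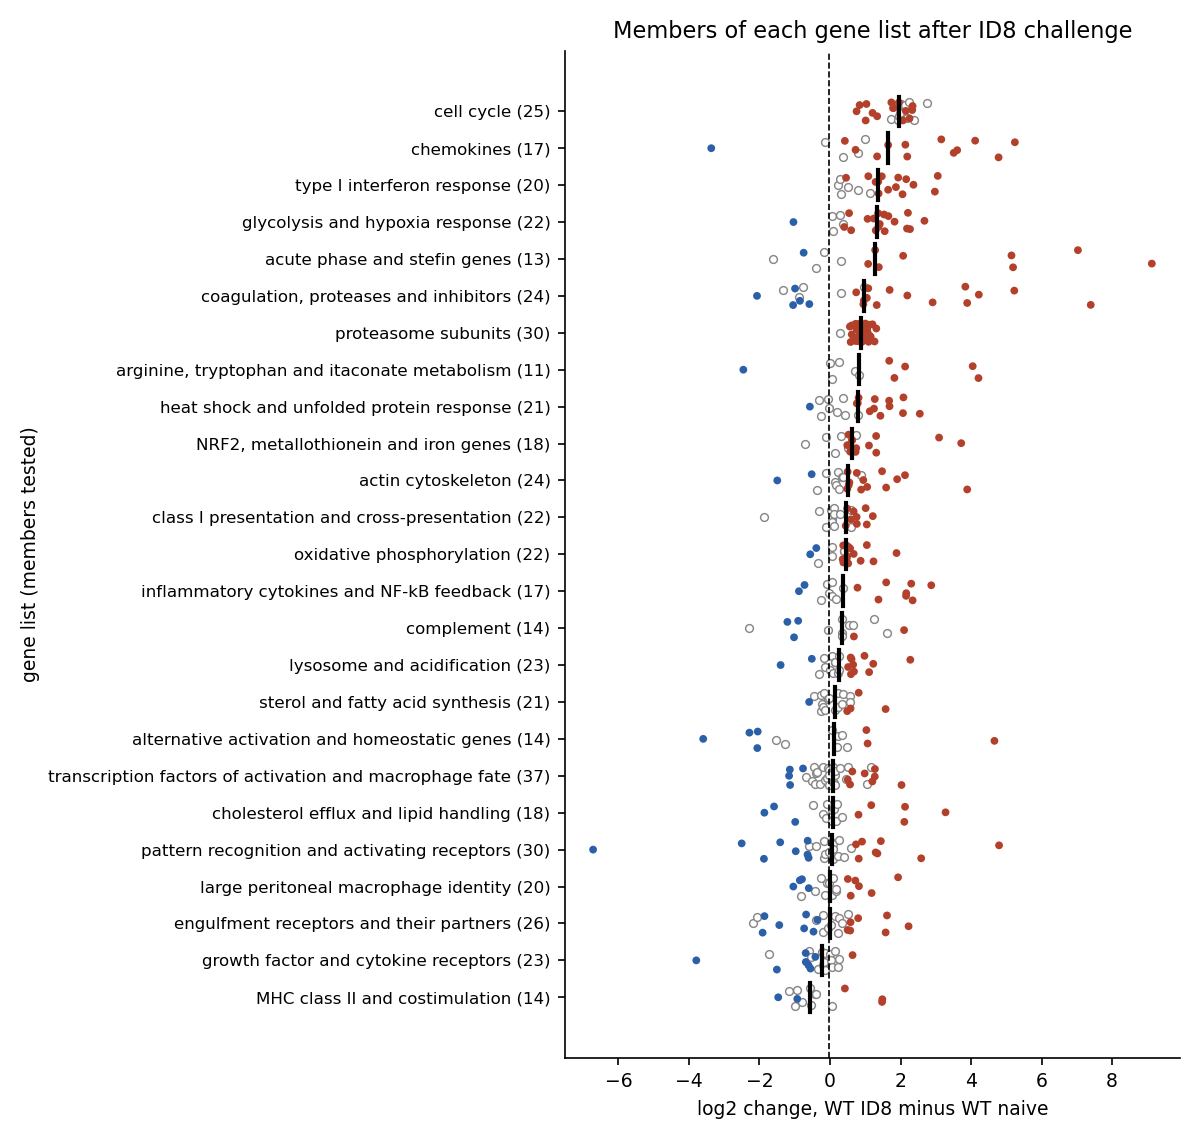
Log2 change (x axis, WT ID8 minus WT naive) of every tested member of the 25 lists (y axis, number tested in brackets), one point per gene, filled red or blue where called higher or lower and open where not called. Thick bars are list medians and the dashed line is the median of all tested genes. The lists from glycolysis and proteasome to chemokines and cell cycle lie to the right, and the list of MHC class II and costimulation has the lowest median.

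In the acute phase and stefin list, 8 of 13 tested members rose and 1 fell, with a median log2 change of 1.28. Saa3, the serum amyloid made by macrophages, was present in naive cells at 4194, 5465 and 11542 CPM and reached 27600.0, 34676 and 27057 in challenged ones (log2 change 2.08, SE 0.34, edgeR adjusted p = 0.000888). Cstb, a cytosolic cathepsin inhibitor, rose from 86.98, 89.9 and 88.1 to 216, 258 and 218 CPM (log2 change 1.38, SE 0.12, edgeR adjusted p = 2.92e-06). Haptoglobin (Hp) was at 127, 189 and 286 in naive and 154, 174 and 132 in challenged libraries and was not called, although it was without WT naive 1 (edgeR adjusted p = 0.0385). Ceruloplasmin (Cp), a copper oxidase, was the member called lower (log2 change -0.75, SE 0.23, edgeR adjusted p = 0.02404), a call lost without WT naive 3 (0.15996), WT ID8 1 (0.0571) or WT ID8 3 (0.0969).

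Chemokines rose in 12 of 17 tested members, with a median of 1.65. Cxcl12, described above, was the member that fell. The monocyte attractants Ccl2 and Ccl7, ligands of Ccr2, rose. Ccl2 was at 6.07, 2.34 and 1.397 CPM in naive and 53.98, 93.8 and 14.97 in challenged libraries (log2 change 4.12, SE 0.95, edgeR adjusted p = 0.0119), and Ccl7 at 2.82, 1.402 and 0.559 in naive and 43.6, 119 and 8.72 in challenged libraries (log2 change 5.24, SE 0.999, edgeR adjusted p = 0.00492). For both, WT ID8 2 was highest and WT ID8 3 lowest of the challenged libraries. Without WT ID8 2 the changes were 3.48 and 4.12. Without WT naive 1 they were 4.85 and 5.85, without WT ID8 3 Ccl7 was at 5.83, and without WT naive 3 Ccl2 was not called (edgeR adjusted p = 0.0523). Ccl5, which attracts T cells and monocytes, rose from 2.38, 3.41 and 2.24 to 10.01, 40.8 and 40.9 (log2 change 3.51, SE 0.54, edgeR adjusted p = 0.000928) and Ccl4 from 1.08, 1.47 and 1.397 to 10.7, 14.7 and 10.5 (log2 change 3.16, SE 0.39, edgeR adjusted p = 5.38e-05). Ccl6, an abundant chemokine of resident macrophages, went from 2626, 2472 and 2512 to 5129, 5518 and 8575 (log2 change 1.34, SE 0.19, edgeR adjusted p = 0.000148) and Ccl9 rose by 0.73.

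The neutrophil attractants Cxcl2 (22.5, 35.1 and 58.05 to 101, 175 and 89.8 CPM, log2 change 1.65) and Cxcl3 (0.975, 0.534 and 0.559 to 13.6, 39.3 and 2.97, 4.78) rose, while Cxcl1 stood at 6.72, 9.62 and 18.8 in naive and 20.4, 32.8 and 8.35 in challenged libraries and was not called. The call of Cxcl2 (edgeR adjusted p = 0.015996) was lost without WT naive 2 (0.0551) or WT ID8 2 (0.05302). Cxcl3 was at 3.61 without WT ID8 2, and limma voom did not call it (adjusted p = 0.0956). The promoters of the risen pair are shown because these genes are textbook targets of NF-kB. The windows are the 250 bases before the start site, from RefSeq in build GRCm38.p6, read 5′ to 3′ in the direction of the gene, with matches to the NF-kB consensus in capitals. Cxcl2 lies at chr5:90903649-90903898, plus strand, and Cxcl3 at chr5:90785851-90786100, plus strand.
Cxcl2: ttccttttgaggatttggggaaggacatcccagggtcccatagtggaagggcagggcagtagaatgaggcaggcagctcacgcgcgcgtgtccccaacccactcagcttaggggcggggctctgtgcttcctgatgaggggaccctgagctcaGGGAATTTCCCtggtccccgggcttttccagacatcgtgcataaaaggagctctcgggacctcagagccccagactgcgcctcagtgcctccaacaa
Cxcl3: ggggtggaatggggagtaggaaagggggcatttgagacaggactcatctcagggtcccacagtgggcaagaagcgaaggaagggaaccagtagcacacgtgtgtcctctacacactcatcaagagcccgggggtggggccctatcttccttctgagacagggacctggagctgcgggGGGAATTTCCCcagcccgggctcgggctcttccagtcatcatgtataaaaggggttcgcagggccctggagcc
Both windows hold the same 11 bases, in which 2 overlapping matches were found, 1 on each strand. Of 14 chemokine genes with a window, 5 (35.7%) held a match on either strand, as did 5 of 17 genes (29.4%) of the inflammatory list and 1204 of all 27025 genes (4.46%). Cxcl1, which was not called, was among the 5.

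In the list of inflammatory cytokines and NF-kB feedback, 8 of 17 members rose and 2 fell. Il6 rose from 1.84, 4.34 and 4.401 to 27.9, 34.1 and 17.6 CPM (log2 change 2.87, SE 0.35, edgeR adjusted p = 6.32e-05). Osm, a cytokine of the same family, rose from 7.58, 9.75 and 7.06 to 26.01, 23.97 and 23.9 (log2 change 1.59, SE 0.26, edgeR adjusted p = 0.000449). Il1rn, the antagonist of the interleukin-1 receptor, was at 5.74, 5.81 and 3.35 in naive and 24.5, 40.3 and 8.99 in challenged libraries (log2 change 2.30, SE 0.46, edgeR adjusted p = 0.00329), and Tnf at 1.2998, 0.868 and 0.699 in naive and 4.83, 5.76 and 2.19 in challenged libraries (log2 change 2.16, SE 0.51, edgeR adjusted p = 0.00556). Il1b overlapped the naive range in WT ID8 3 (4.604, 4.55 and 0.821 against 0.975, 0.668 and 0.559). Its call (edgeR adjusted p = 0.0331) was lost without WT naive 1 (0.0582), WT naive 2 (0.08001), WT naive 3 (0.0996) or WT ID8 2 (0.111), and with the replicate number as a block (edgeR adjusted p = 0.0599). The inflammasome sensor Nlrp3 fell (21.99, 27.7 and 30.2 to 14.4, 19.2 and 10.1, log2 change -0.88), as did Nfkbiz, a nuclear partner of NF-kB (log2 change -0.72, SE 0.21, edgeR adjusted p = 0.0168), whose call was lost without WT naive 3 (0.0865) or WT ID8 2 (0.0574). Of the feedback genes, Nfkbia was called higher, a call lost without WT naive 1 and within the 6 WT libraries alone. Tnfaip3 and Socs3 were not called, with changes of -0.09 and -0.27.

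Of 11 tested genes of arginine, tryptophan and itaconate metabolism 5 rose and 1 fell (median 0.83, or 0.53 without WT ID8 2 and 0.49 without WT ID8 3). The increases included Arg1, Slc7a2 and Odc1, while the other arginase gene, Arg2, was not among those tested. Arg1, the arginase that splits arginine into ornithine and urea, went from 165, 179 and 143 CPM to 3353, 3690.5 and 1980.1 (log2 change 4.21, SE 0.27, edgeR adjusted p = 5.19e-07), an 18.5-fold difference with no overlap. Slc7a2, an arginine transporter, went from 101, 89.3 and 99.96 to 482, 491 and 299 (log2 change 2.13, SE 0.17, edgeR adjusted p = 1.74e-06), and Odc1, which makes polyamines from ornithine, from 24.2, 21.8 and 15.5 to 75.5, 79.1 and 42.3 (log2 change 1.68, SE 0.23, edgeR adjusted p = 0.000137). Nos2, which makes nitric oxide from the same amino acid, was at 0.433, 0.467 and 0.699 in naive and 0.575, 1.12 and 0.913 in challenged libraries and was not called. Acod1, the itaconate synthase, was at 4.87, 2.47 and 4.54 in naive and 70.2, 108 and 16.7 in challenged libraries (log2 change 4.05, SE 0.62, edgeR adjusted p = 0.00134). Ass1, also called higher (log2 change 1.83), was at 0.57 without WT ID8 3. It lost its call without that library, WT naive 1, WT naive 2 or WT naive 3. Ido2, the member called lower, had 9 counts over the challenged libraries. Its call was lost without WT naive 1, WT naive 2, WT naive 3, WT ID8 2 or WT ID8 3.

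Of 20 genes of the type I interferon response, 14 rose and none fell at this threshold, with a median of 1.37. Oasl1, an antiviral protein, was at 2.82, 2.34 and 4.82 CPM in naive and 31.2, 36.3 and 16.6 in challenged libraries (log2 change 3.06, SE 0.49, edgeR adjusted p = 0.000892), Rsad2 (viperin) at 12.8, 9.62 and 15.7 in naive and 54.8, 71.4 and 32.9 in challenged libraries (log2 change 2.06, SE 0.46, edgeR adjusted p = 0.00839), and Bst2 (tetherin) at 132, 106 and 107 in naive and 249.97, 331 and 312 in challenged libraries (log2 change 1.37, SE 0.30, edgeR adjusted p = 0.00572). Irf7, the factor that amplifies the response, was at 87.6, 61.4 and 80.2 in naive and 192, 340.1 and 304 in challenged libraries (log2 change 1.87, SE 0.47, edgeR adjusted p = 0.0146). Stat2 (0.52) and Mx1 (0.29) were not called. The count of called members fell to 6, 5, 7 and 6 without WT naive 1, WT naive 2, WT naive 3 and WT ID8 2. It was 9 with upper-quartile scaling and 5 with the background covariate. Oasl1, Rsad2 and Bst2 kept their calls in each of the 4 fits without a library, and Irf7 lost its call without WT naive 2 (edgeR adjusted p = 0.0535) or WT naive 3 (0.0517). With the background covariate Bst2 (edgeR adjusted p = 0.066) and Irf7 lost their calls.

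Isg15, a ubiquitin-like protein, was at 17.7, 14.2 and 13.8 CPM in naive and 60.5, 100.4 and 42.9 in challenged libraries (log2 change 2.16, SE 0.61, edgeR adjusted p = 0.0266), and Ifit1, which binds foreign RNA, at 7.15, 6.34 and 8.52 in naive and 40.1, 58.2 and 16.1 in challenged libraries (log2 change 2.37, SE 0.60, edgeR adjusted p = 0.0163). Both were higher in every challenged library than in any naive one. The edgeR adjusted p of Isg15 was 0.0665, 0.0778, 0.0885 and 0.08397 without WT naive 1, WT naive 2, WT naive 3 and WT ID8 2, and that of Ifit1 0.0556, 0.0597, 0.0539 and 0.05198. Their promoters are shown for the element through which interferon acts, the ISRE. Its core was searched on both strands as GAAA, any 2 bases and GAAA, and is in capitals. The windows are built as for the chemokines, with Isg15 at chr4:156200819-156201068, minus strand, and Ifit1 at chr19:34640639-34640888, plus strand.
Isg15: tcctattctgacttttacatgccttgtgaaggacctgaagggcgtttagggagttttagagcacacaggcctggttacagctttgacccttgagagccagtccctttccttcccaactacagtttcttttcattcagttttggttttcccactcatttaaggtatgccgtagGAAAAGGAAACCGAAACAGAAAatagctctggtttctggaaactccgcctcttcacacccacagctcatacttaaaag
Ifit1: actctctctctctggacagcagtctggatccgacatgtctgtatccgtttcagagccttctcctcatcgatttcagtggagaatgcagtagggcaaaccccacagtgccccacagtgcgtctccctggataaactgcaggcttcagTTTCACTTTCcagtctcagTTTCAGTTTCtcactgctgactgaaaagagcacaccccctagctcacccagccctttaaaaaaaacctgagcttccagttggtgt
In Isg15, 3 overlapping matches form 1 run, and in Ifit1 there are 2 separate ones on the opposite strand. A match was found in 7 of 15 interferon genes with a window (46.7%), against 936 of 27025 genes in all (3.46%). Oasl1 had none in this window.

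Protein folding, degradation and redox genes rose broadly. In the heat shock and unfolded protein list 12 of 21 members rose and 1 fell (median 0.81). Hsp90aa1, the inducible cytosolic Hsp90, was at 87.3, 88.4 and 87.4 CPM in naive and 609, 603 and 327 in challenged libraries (log2 change 2.55, SE 0.20, edgeR adjusted p = 1.53e-06). The mitochondrial pair Hspd1 (147, 167 and 131 to 499, 622 and 317, log2 change 1.69) and Hspe1 (79.5, 57.5 and 50.1 to 207, 249 and 142, 1.68) rose together. Of the endoplasmic reticulum chaperones, Pdia4 rose by 1.43 and Hspa5 (BiP) by 1.27, whereas Ddit3, Trib3 and Herpud1, genes induced by stress in that compartment, were not called (0.19, -0.04 and -0.04). Trib3 had only 30 counts over the naive and 35 over the challenged libraries. Hspa1a and Hspa1b, a near-identical pair between which reads may be split, were not called either (-0.25 and 0.81), although Hspa1b was without WT ID8 1 (edgeR adjusted p = 0.0468) or WT ID8 3 (0.0341). In all of the risen chaperones named here WT ID8 3 was the lowest challenged library.

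Hspd1 and Hspe1 are transcribed head to head, and 1 window serves to show the element between them. It is the heat shock element, searched on both strands as GAA, any 2 bases, TTC, any 2 bases and GAA, in the window of Hspe1 at chr1:55087898-55088147, plus strand.
Hspe1: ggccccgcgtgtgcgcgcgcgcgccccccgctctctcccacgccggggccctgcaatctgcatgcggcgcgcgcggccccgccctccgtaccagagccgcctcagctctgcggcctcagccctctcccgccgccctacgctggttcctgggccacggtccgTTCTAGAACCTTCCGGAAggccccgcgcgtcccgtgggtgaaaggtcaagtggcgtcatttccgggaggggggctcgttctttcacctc
In both windows 2 overlapping matches form 1 run, shared by the pair because the windows overlap. A match was found in 2 of 18 genes of the list with a window (11.1%), which are this pair, and in 139 of 27025 genes in all (0.514%).

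Of 30 proteasome subunits and activators 29 rose, the exception being the interferon-inducible activator subunit Psme1 (147, 115 and 91.1 CPM in naive and 125, 163 and 138 in challenged libraries, edgeR adjusted p = 0.353). The median change was 0.89, and the members ran from 0.27 to 1.31. The largest was Psma6, a subunit of the outer ring, at 120.3, 140.5 and 116 in naive and 284, 368 and 285 in challenged libraries (log2 change 1.31, SE 0.17, edgeR adjusted p = 9.07e-05). Psmb5, a catalytic subunit of the inner ring, rose by 0.87, and Psmd2, a scaffold of the regulatory cap, from 149.9, 158 and 151 to 317, 413 and 292 (log2 change 1.15, SE 0.15, edgeR adjusted p = 6.68e-05). The catalytic subunits of the immunoproteasome, kept in the list of class I presentation, were not called: Psmb8 at 0.57, Psmb9 at 0.60 and Psmb10 at 0.61. Psmb8 was called without WT naive 1 (edgeR adjusted p = 0.0463) or WT ID8 1 (0.0494). Psmb10 was called without WT naive 1 (0.0349), WT ID8 1 (0.0489) or WT ID8 3 (0.0432), and with the replicate block (0.0245).

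Of the NRF2, metallothionein and iron genes 12 of 18 rose (median 0.63). Tfrc, the transferrin receptor that takes up iron, was at 8.34, 6.61 and 6.92 CPM in naive and 114, 135 and 38.8 in challenged libraries (log2 change 3.72, SE 0.41, edgeR adjusted p = 0.000131), with WT ID8 3 lowest of the challenged libraries. Ferritin was not called in either chain, Fth1 at 0.13 and Ftl1 at -0.11. Hmox1, which frees iron from haem, rose from 94.99, 106 and 129.7 to 246, 279 and 189 (log2 change 1.11, SE 0.16, edgeR adjusted p = 0.000191). The thioredoxin reductase Txnrd1 (51.6, 66.7 and 54.5 to 157, 161 and 111, log2 change 1.31) and the sulfiredoxin Srxn1 (20.8, 19.2 and 18.5 to 52.5, 54.6 and 38.3, 1.31) rose. Nqo1, a standard NRF2 target, was at 0.542, 0.601 and 0.349 in naive and 0.921, 0.859 and 0.7301 in challenged libraries, close to the counting floor, and was not called. The metallothionein Mt2 rose from 0.758, 1.202 and 2.65 to 14.4, 16.2 and 10.4 (log2 change 3.09, SE 0.42, edgeR adjusted p = 0.0001497), and without WT naive 3 by 3.77.

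Glycolysis was among the most uniform lists, with 17 of 22 members higher and 1 lower, at a median of 1.33. The glucose transporter Slc2a1 was at 7.58, 5.21 and 5.45 CPM in naive and 23.5, 32.1 and 26.7 in challenged libraries (log2 change 2.18, SE 0.20, edgeR adjusted p = 5.21e-06), and the lactate exporter Slc16a3 at 30.3, 38.5 and 26.7 in naive and 143, 142 and 176 in challenged libraries (log2 change 2.27, SE 0.19, edgeR adjusted p = 1.97e-06). Between them, Pgk1 (77.01, 74.7 and 58.95 to 273, 369.8 and 331, log2 change 2.21) and Pgam1 (38.6, 34.1 and 36.4 to 108, 143 and 137, 1.83) had the largest changes among the pathway's enzymes, and hexokinase 2 (Hk2) rose by 1.07 and lactate dehydrogenase (Ldha) by 1.36. Pfkfb3, which makes the allosteric activator of phosphofructokinase, was the member that fell (44.8, 38.6 and 43.4 to 20.5, 26.2 and 15.4, log2 change -1.04, SE 0.25, edgeR adjusted p = 0.00764). Vegfa rose from 0.975, 0.668 and 0.699 to 6.21, 5.59 and 3.24 (log2 change 2.68). Of other hypoxia-regulated genes, Bnip3, Egln3 and Pdk1 were not called, with changes of 0.28, 0.04 and 0.10. Nor was Hif1a itself (0.38), although it was without WT ID8 3 (edgeR adjusted p = 0.00325), without a filter on low counts (0.03196) and with the background covariate (0.0433). Several of these enzymes have processed copies in the genome, among which the reads of Gapdh, Pgam1, Tpi1 or Ldha could have been divided.

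The median was lower for genes of the respiratory chain. Of 22 members 15 rose and 2 fell, with a median of 0.46. Cycs (cytochrome c) was at 118, 95.7 and 76.6 CPM in naive and 337, 446 and 289 in challenged libraries (log2 change 1.89, SE 0.21, edgeR adjusted p = 2.35e-05), and Atp5g1, a subunit of the ATP synthase ring, at 101, 87.9 and 66.9 in naive and 219.7, 216 and 165 in challenged libraries (log2 change 1.23, SE 0.23, edgeR adjusted p = 0.001502). The ATP synthase subunit Atp5b rose by 0.87 and Ndufs1 of complex I by 0.57. The count of called members was 11 without WT naive 1 or WT naive 3, 9 with upper-quartile scaling, 8 within the 6 WT libraries alone and 8 with the background covariate.

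The 6 Mcm genes, which encode the replicative helicase, rose. Mcm2, one of its subunits, was at 20.9, 21.9 and 18.7 CPM in naive and 74.6, 78.4 and 140.3 in challenged libraries (log2 change 2.26, SE 0.26, edgeR adjusted p = 7.32e-05), Mcm3 at 48.3, 44.5 and 46.9 in naive and 141, 148 and 251 in challenged libraries (log2 change 1.95, SE 0.22, edgeR adjusted p = 2.78e-05), and Mcm6 at 77.4, 71.1 and 70.6 in naive and 184, 199 and 387 in challenged libraries (log2 change 1.82, SE 0.25, edgeR adjusted p = 0.000213). All 6 were higher in every challenged library than in any naive one. Of other replication genes Rrm2, a subunit of ribonucleotide reductase, was high in WT ID8 3 alone (17.8, 23.97 and 39.6 in naive and 11.7, 14.8 and 344 in challenged libraries) and was not called. Tyms (thymidylate synthase) was called higher (log2 change 2.07, SE 0.59, edgeR adjusted p = 0.0267), but was at 0.96 without WT ID8 3 and lost its call without WT naive 1 (0.0875), WT naive 2 (0.0801) or WT naive 3 (0.0521). The cyclin-dependent kinase Cdk4 and the inhibitor Cdkn1a (p21) also rose (1.01 and 1.21).

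Genes of mitosis were high in WT ID8 3 alone. Mki67, the Ki-67 antigen, was at 18.1, 29.8 and 56.6 CPM in naive and 14.8, 11.3 and 380.2 in challenged libraries, Top2a at 25.6, 41.4 and 66.99 in naive and 20.7, 20.4 and 405 in challenged libraries, and Ccnb1 (cyclin B1) at 3.25, 4.87 and 11.2 in naive and 2.53, 3.09 and 124 in challenged libraries. The other 2 challenged libraries were below every naive library for Mki67, Top2a and Ccnb1. None of the 3 genes was called (edgeR adjusted p = 0.243, 0.244 and 0.152), and without WT ID8 3 the changes turned to -1.41, -1.11 and -1.18. Ccna2 and Birc5 (survivin) were not called with all libraries, and without WT ID8 3 they were called lower, at -2.21 (edgeR adjusted p = 0.00546) and -2.19 (0.0216). The list as a whole had 15 of 25 members higher and none lower at this threshold, with a median of 1.96. Without WT ID8 3 the median was 0.64, 13 members were called higher and 2 lower, and 10 of the 25 changes were negative. With the background covariate the median was 0.53.

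WT ID8 3 also stood apart in other ways. It was the deepest library, had the least receptor background, and differed most from its group: chi-square divided by its degrees of freedom was 46.5 for its counts against WT ID8 1 and 78.6 against WT ID8 2, and 14.7 between those libraries. Its levels of Ccl2, Ccl7, Cxcl3, Il1rn, Acod1, Ifit1 and Hsph1 were the lowest of the 3 challenged libraries. What sets this library apart was not tested.

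**Figure D4:**
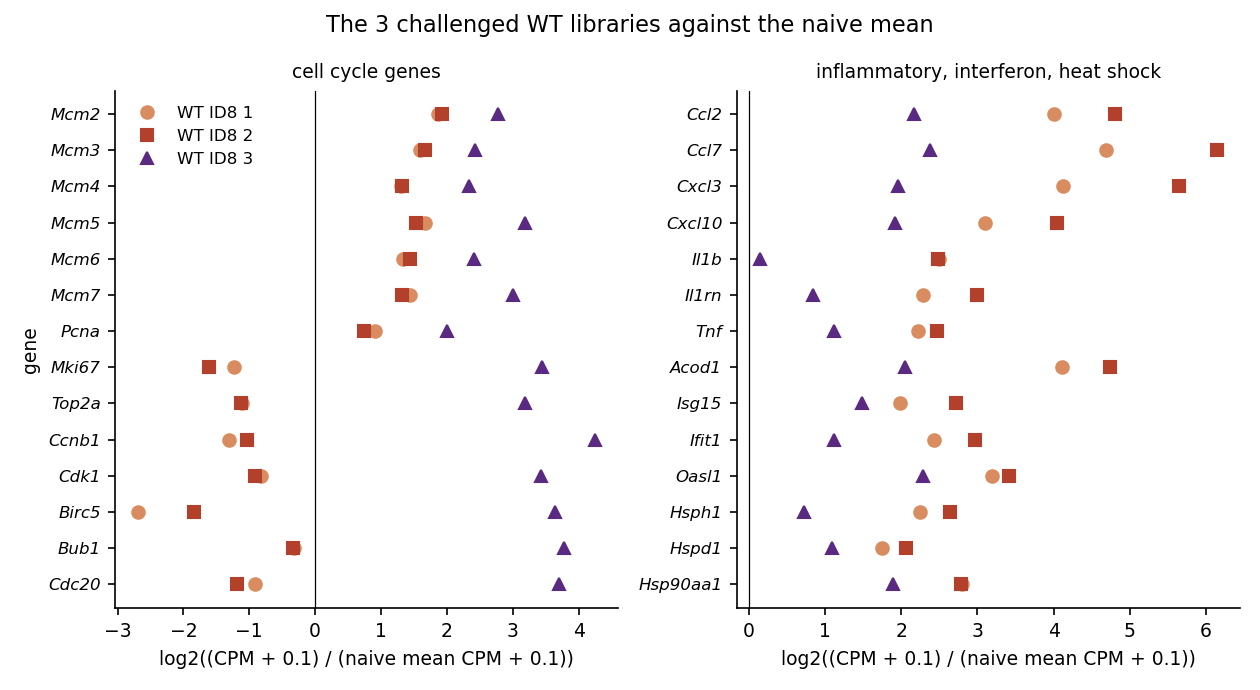
Log2 ratio of each challenged WT library to the mean of the 3 naive libraries (x axis, 0.1 CPM added) for 14 cell cycle genes (left) and 14 inflammatory, interferon and heat shock genes (right), with a marker per library. The triangles of WT ID8 3 lie to the right of the other 2 libraries in the left panel and to the left of them in the right panel, and from Mki67 down the other 2 libraries lie below 0.

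The identity genes of large peritoneal macrophages were split, with 6 of 20 higher and 4 lower and a median of 0.01. Gata6 was at 120.2, 189 and 167 CPM in naive and 176, 194 and 168 in challenged libraries and was not called (log2 change 0.17, SE 0.15, edgeR adjusted p = 0.358). Rarb, the retinoic acid receptor gene, rose from 6.82, 5.94 and 8.87 to 15.9, 15.8 and 17.4 (log2 change 1.18, SE 0.19, edgeR adjusted p = 0.000367), and Serpinb2, an inhibitor of plasminogen activators, from 1600.2, 1790.3 and 1557 to 4884, 10354 and 3632 (log2 change 1.93, SE 0.37, edgeR adjusted p = 0.002702). Alox15, the lipoxygenase that marks resident peritoneal macrophages, fell from 10602, 11360.0 and 11918 to 5823, 5905 and 4751 (log2 change -1.04, SE 0.14, edgeR adjusted p = 0.000123). Ltbp1 (-0.79) and Tgfb2 (-0.86) fell too, and Itgam (CD11b) rose (0.72). Adgre1 was used in the sort, which both groups went through. Its call (log2 change 0.59, SE 0.19, edgeR adjusted p = 0.0264) was lost without WT naive 1 (0.112), WT naive 2 (0.0591) or WT ID8 2 (0.126), and that of Icam2 (log2 change 0.51) without WT naive 1 (0.0557), WT naive 3 (0.070001) or WT ID8 3 (0.0649).

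Of 14 genes of alternative activation and homeostasis, 3 rose and 4 fell. Retnla (RELM-alpha) was at 596, 357 and 275 CPM in naive and 46.96, 24.4 and 30.6 in challenged libraries (log2 change -3.60, SE 0.66, edgeR adjusted p = 0.004104), Cd163, the haemoglobin scavenger receptor, at 79.6, 53.3 and 64.96 in naive and 19.9, 16.1 and 11.9 in challenged libraries (log2 change -2.06, SE 0.30, edgeR adjusted p = 0.000434), and Igf1 at 239, 234 and 333 in naive and 71.9, 53.1 and 40.8 in challenged libraries (log2 change -2.29, SE 0.21, edgeR adjusted p = 5.22e-06). The mannose receptor Mrc1 was at 59.8, 42.5 and 52.1 in naive and 13.3, 4.81 and 18.4 in challenged libraries (log2 change -2.05, SE 0.55, edgeR adjusted p = 0.0216), and its call was lost without WT naive 1 (0.0605), WT naive 3 (0.0602), WT ID8 1 (0.0543) or WT ID8 2 (0.0507). Against these, Cd5l, a lipid-binding secreted protein of tissue macrophages, rose from 1166, 1069 and 1180.0 to 2046, 2359 and 2579 (log2 change 1.03, SE 0.15, edgeR adjusted p = 0.0001497). Chil3 (Ym1), a marker of the alternative state elsewhere, was at 1.20 to 4.61 CPM in all WT libraries and was not called.

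Engulfment receptors moved in both directions, 7 higher and 7 lower of 26. Timd4 itself did not pass the test (log2 change -0.19, SE 0.16, edgeR adjusted p = 0.357), and it was called lower with upper-quartile scaling (edgeR adjusted p = 0.0346). Nor was Mertk, a receptor tyrosine kinase for coated dying cells (141, 148 and 160.4 CPM in naive and 134, 130.3 and 129.6 in challenged libraries). Axl, its relative, was at 73.004, 81.6 and 71.5 in naive and 34.3, 38.2 and 145 in challenged libraries, low in 2 challenged libraries and high in WT ID8 3, and its change was -1.03 without that library. Of the bridging molecules that link phosphatidylserine to engulfing receptors, Gas6 fell from 9.098, 5.41 and 6.71 to 2.302, 1.46 and 1.87 (log2 change -1.91, SE 0.32, edgeR adjusted p = 0.000576) and Mfge8 from 60.9, 84.004 and 73.6 to 21.9, 20.9 and 37.2 (log2 change -1.44, SE 0.19, edgeR adjusted p = 9.46e-05). So did all 3 chains of C1q, which tags dying cells. C1qa changed by -0.73, C1qb by -0.47 and C1qc by -0.68. The call of C1qb (edgeR adjusted p = 0.0373) was lost without WT naive 1 (0.147), WT naive 2 (0.0854), WT naive 3 (0.0784), WT ID8 1 (0.159) or WT ID8 2 (0.0925). Marco, a class A scavenger receptor, rose from 429.7, 394 and 722 to 2181, 2113 and 2953 (log2 change 2.23, SE 0.22, edgeR adjusted p = 8.61e-06). Of the integrins that bind Mfge8, Itgb5 rose (3.14, 2.34 and 3.21 to 5.98, 11.3 and 8.49, log2 change 1.58) and Itgb3 fell (20.04, 19.3 and 23.5 to 3.91, 3.44 and 9.35, -1.86, or -2.49 without WT ID8 3).

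Pattern recognition and activating receptors were split evenly, 8 higher and 8 lower of 30. Trem1 led the increases. Clec7a (dectin-1), a receptor for fungal glucans, fell from 188, 217 and 169.9 CPM to 56.7, 61.95 and 38.7 (log2 change -1.87, SE 0.18, edgeR adjusted p = 6.06e-06). Among Fc receptors the activating Fcgr4 rose (78.5, 69.4 and 89.6 to 128, 256 and 261, log2 change 1.44) and the inhibitory Fcgr2b fell (236, 271 and 345 to 207, 174 and 179, -0.61). The call of Fcgr2b was lost without WT naive 3 (edgeR adjusted p = 0.1099) or WT ID8 2 (0.07103). Tlr2 and Cd14 were not called (-0.16 and 0.23).

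Complement had 2 members higher and 3 lower of 14. Properdin (Cfp) and C4b fell, with changes of -0.90 and -1.02, and C4b has a close copy. Cd55, which protects cells from complement, rose from 2.92, 3.27 and 5.59 to 17.1, 22.2 and 11.96 CPM (log2 change 2.10, SE 0.32, edgeR adjusted p = 0.000321). C3 was at 112, 159 and 264 in naive and 162, 254 and 264 in challenged libraries and C5ar1 at 404, 527 and 474 in naive and 839, 982 and 369 in challenged libraries. C5ar1 was called higher without WT ID8 3 (edgeR adjusted p = 3.47e-05), C3 without WT naive 3 (0.0228), and the list had 9 called members without WT ID8 1.

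In the list of coagulation factors, proteases and inhibitors 14 of 24 rose and 5 fell (median 0.96). Plau, an activator of plasminogen, was called lower (5.63, 4.54 and 4.33 CPM in naive and 1.496, 3.27 and 2.42 in challenged libraries, log2 change -0.99, SE 0.31, edgeR adjusted p = 0.0236). That call was lost without WT naive 1 (0.08504), WT naive 2 (0.0559), WT naive 3 (0.050998) or WT ID8 1 (0.0729). Factor X (F10) rose from 299, 293 and 306 to 659, 751 and 842 (log2 change 1.33, SE 0.13, edgeR adjusted p = 1.09e-05) and factor VII (F7) by 1.05, while the A chain of factor XIII (F13a1), which cross-links fibrin, fell from 700.4, 439 and 475 to 114, 198 and 72.9 (log2 change -2.07, SE 0.36, edgeR adjusted p = 0.00189). Tgm2, a tissue transglutaminase, rose from 5.31, 14.8 and 14.9 to 155, 198 and 175 (log2 change 3.89, SE 0.36, edgeR adjusted p = 3.18e-05). The membrane metalloproteinase Mmp14 was at 2.38, 1.803 and 3.07 in naive and 40.7, 50.8 and 13.2 in challenged libraries (log2 change 3.84, SE 0.43, edgeR adjusted p = 7.97e-05), and the matrix proteoglycan Vcan at 5.96, 3.61 and 4.47 in naive and 38.9, 45.1 and 20.9 in challenged libraries (log2 change 2.91, SE 0.29, edgeR adjusted p = 1.22e-05). Factor V (F5), a known product of these macrophages, was at 879, 1578 and 1219.6 in naive and 555, 378 and 1083 in challenged libraries and was not called. It was called lower without WT ID8 3 (edgeR adjusted p = 0.000207), with upper-quartile scaling (0.0308), with the background covariate (0.00859) and by limma voom (0.0263).

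MHC class II and costimulation genes had a median of -0.56 (-0.15 without WT naive 1 and -0.21 without WT ID8 1), with 3 of 14 called higher and 2 lower. Class II protein was part of the sort gate, so these transcripts describe cells selected to be low for it. H2-Aa was at 81.99, 28.2 and 25.4 CPM in naive and 8.75, 17.6 and 42.5 in challenged libraries, and Cd74 at 269, 114 and 128 in naive and 44.4, 63.6 and 232 in challenged libraries. WT ID8 3 and WT naive 1 were high for both, and neither gene was called. Both are also expressed by B cells and dendritic cells. The summed B cell markers given above were lower in challenged libraries. Dendritic cell markers were summed only together with those of other cells, in a sum that includes Cd209a. The part of B cells and dendritic cells in these values was not tested. Without WT ID8 3 Cd74 was called lower (-1.62, edgeR adjusted p = 0.0109), and H2-Aa moved to -1.70, or to -0.18 without WT naive 1. Cd86 was not called (-0.39), although it was without WT ID8 2 (0.0441) and with upper-quartile scaling (0.008196). Cd274 (PD-L1) was at 11.8, 6.88 and 8.45 in naive and 22.6, 40.7 and 12.5 in challenged libraries (log2 change 1.48, SE 0.40, edgeR adjusted p = 0.0157), with the call lost without WT naive 2 (0.0557) or WT naive 3 (0.05904). The list's 5 calls became 2, 1, 2 and 2 without WT naive 1, WT naive 2, WT naive 3 and WT ID8 2, 2 with the replicate number as a block, and 0 within the 6 WT libraries alone.

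Of 22 genes of class I presentation and cross-presentation 9 rose and none fell at this threshold (median 0.47), and 5 were called within the 6 WT libraries alone. The class I chains H2-K1 (1296, 1171 and 1456 CPM in naive and 1068, 1390.2 and 1586 in challenged libraries), whose reads may be shared with other class I genes, and B2m (2735, 2477 and 3123 in naive and 2176, 3059.9 and 3395 in challenged libraries) were not called. The loading chaperones Calr (533, 476 and 454 to 1165, 1326 and 903, log2 change 1.21, SE 0.16, edgeR adjusted p = 8.21e-05) and Pdia3 (log2 change 0.67) rose, as did the trimming peptidase Erap1 (71.7, 71.3 and 66.4 to 135, 166 and 122, log2 change 1.01, SE 0.13, edgeR adjusted p = 9.73e-05). Sec61a1, a channel of the endoplasmic reticulum, rose by 0.75. The peptide pump Tap1 rose by 1.04 (edgeR adjusted p = 0.0431). That call was lost without WT naive 2 (0.113), WT naive 3 (0.122), WT ID8 2 (0.115) or WT ID8 3 (0.137), and with the replicate block (0.0501).

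Lysosomal genes rose in 10 and fell in 2 of 23 members (median 0.24, or 0.42 without WT ID8 1). Gpnmb, a membrane protein of loaded lysosomes, was at 3.25, 2.87 and 4.54 CPM in naive and 14.2, 13.8 and 23.6 in challenged libraries (log2 change 2.28, SE 0.27, edgeR adjusted p = 3.47e-05), and Cd68 (macrosialin) at 649, 621 and 584 in naive and 1166, 1440.5 and 1396 in challenged libraries (log2 change 1.11, SE 0.13, edgeR adjusted p = 3.84e-05). Cathepsins Z and L rose by 1.23 and 0.98, whereas cathepsin S (Ctss), the protease of class II loading, fell from 1826, 1980.3 and 2253 to 1233, 1592 and 1414 (log2 change -0.52, SE 0.14, edgeR adjusted p = 0.0132). The call of Ctss was lost without WT naive 2 (0.0523), WT naive 3 (0.0916) or WT ID8 1 (0.0876). Hexa, a lysosomal hexosaminidase, fell from 566, 591 and 616 to 204, 196 and 271 (log2 change -1.40, SE 0.13, edgeR adjusted p = 6.27e-06). The proton pump subunits Atp6v0d1 and Atp6v1a rose by 0.68 and 0.61, and Lamp1, Ctsd and the regulator Tfeb were not called (0.07, 0.26 and 0.08).

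Lipid genes showed single large changes rather than a shared direction. Apoe, the apolipoprotein that carries lipid out of macrophages, fell from 19826, 22141 and 22830.0 CPM to 6463, 7023 and 4356 (log2 change -1.86, SE 0.17, edgeR adjusted p = 3.7e-06). The desaturases Scd1 (1.41, 1.14 and 0.978 to 11.6, 7.22 and 14.9, log2 change 3.28, SE 0.29, edgeR adjusted p = 3.12e-06) and Scd2 (10.1, 4.61 and 7.19 to 34.8, 25.9 and 33.9, log2 change 2.13) rose. Nr1h3, the oxysterol receptor LXR-alpha, rose from 3.25, 4.74 and 5.73 to 15.2, 32.996 and 11.8 (log2 change 2.11, SE 0.33, edgeR adjusted p = 0.000416). Of its transporter targets, Abca1 was not called (111, 206 and 239 in naive and 193, 190.3 and 142 in challenged libraries), and Abcg1 rose (1.17, edgeR adjusted p = 0.0151), a call lost without WT ID8 3 (0.0711) and with the background covariate (0.147). The efflux and lipid handling list had 5 members higher and 3 lower of 18.

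Sterol and fatty acid synthesis had 4 higher and 1 lower of 21, a share below the 31.8% of all genes. Mvd, which completes isoprenoid units, was the clearest at 16.7, 15.9 and 14.2 CPM in naive and 48.8, 40.7 and 49.8 in challenged libraries (log2 change 1.58, SE 0.15, edgeR adjusted p = 5.21e-06), and fatty acid synthase (Fasn) rose by 0.81.

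Of 24 actin cytoskeleton genes 13 rose and 2 fell (median 0.52). Basp1, a membrane-bound actin regulator, was at 4.98, 3.27 and 1.82 CPM in naive and 38.8, 59.8 and 47.3 in challenged libraries (log2 change 3.89, SE 0.30, edgeR adjusted p = 1.53e-06). Capg, which caps filaments, went from 364, 334 and 272 to 777, 1117 and 1032 (log2 change 1.59, SE 0.17, edgeR adjusted p = 1.61e-05), and Actg1 from 237, 242 and 233 to 550.5, 688 and 745 (log2 change 1.48, SE 0.13, edgeR adjusted p = 3.86e-06). Cfl1 and Pfn1, which turn filaments over, rose by 1.05 and 0.95. The bundling proteins Fscn1 (63.04, 71.4 and 80.7 to 37.98, 20.8 and 18.5, log2 change -1.495) and Lcp1 (-0.52) fell, and the call of Lcp1 was lost without WT naive 2 (edgeR adjusted p = 0.0608) or WT ID8 1 (0.0876). Marcksl1 was not called (99.3, 114 and 31.1 in the challenged libraries), but it was without WT ID8 3 (edgeR adjusted p = 0.000516).

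Transcription factors were called at about the background share, 8 higher and 4 lower of 37. Id1, an inhibitor of helix-loop-helix factors, rose from 6.93, 10.1 and 7.89 CPM to 28.8, 43.4 and 30.03 (log2 change 2.03, SE 0.24, edgeR adjusted p = 3.44e-05), and Myc from 64.8, 66.6 and 39.3 to 153, 168 and 91.5 (log2 change 1.27, SE 0.32, edgeR adjusted p = 0.0113). Cebpa fell from 82.6, 105 and 112 to 48.2, 31.1 and 54.7 (log2 change -1.16, SE 0.20, edgeR adjusted p = 0.000633), and Cebpd and the repressor Bcl6 changed by -1.13 and -1.14 on the log2 scale. Cebpb was not called (0.15), nor was Maf (-0.52), which was called lower without WT ID8 1 (edgeR adjusted p = 0.0408).

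Among growth factor and cytokine receptors 7 of 23 members fell and 1 rose. Il1r1, the signalling receptor for interleukin-1, fell from 5.31, 4.94 and 4.82 CPM to 0.345, 0.344 and 0.365 (15 counts over the challenged libraries, log2 change -3.79, SE 0.35, edgeR adjusted p = 4.07e-06). Csf3r, the G-CSF receptor, fell from 169, 209.8 and 235 to 73.3, 82.9 and 60.1 (log2 change -1.51, SE 0.16, edgeR adjusted p = 1.68e-05) and Ifngr1 from 222, 230.3 and 258 to 133, 151 and 157 (log2 change -0.69, SE 0.13, edgeR adjusted p = 0.00132). Csf2ra rose (223, 245 and 223 to 335, 340.1 and 402, log2 change 0.64, SE 0.12, edgeR adjusted p = 0.00128), and Csf1r, on which these macrophages depend, was not called (-0.24). The called members numbered 5, 4, 5 and 4 without WT naive 2, WT naive 3, WT ID8 1 and WT ID8 2, and 13 with upper-quartile scaling.

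Whether these responses differ from those of Tim4KO macrophages was asked with the interaction term, the WT change minus the Tim4KO change. By edgeR, 0 genes were called with all libraries, 1186 had an unadjusted p under 0.05, DESeq2 called 9 and limma voom 0. The 2 comparisons share no libraries. The log2 difference of Arg1 was 4.21 in WT and 4.02 in Tim4KO cells, that of Saa1 9.13 and 7.71, that of Slc2a1 2.18 and 1.499, and that of Apoe -1.86 and -1.32. The interferon list had a median of 1.37 in WT and -0.04 in Tim4KO cells, while the median of all genes was -0.04 and -0.05. The Tim4KO value rested on Tim4KO naive 1, in which the list summed to 2021 CPM against 853 and 758 in the other naive and 1530, 1492 and 1503 in the challenged Tim4KO libraries. Without Tim4KO naive 1 the Tim4KO median was 0.83. The cell cycle list had medians of 1.96 and 0.43, but 0.64 in WT without WT ID8 3 and 0.71 in Tim4KO without Tim4KO naive 1. The difference between these medians was not tested. The glycolysis list stood at 1.33 and 1.18 and the proteasome list at 0.89 and 0.66. Ifit1 was at 2.37 and -0.07, or 0.91 in Tim4KO without Tim4KO naive 1, and no interferon gene's interaction passed the threshold with all libraries. Ccl12, a Ccr2 ligand with close relatives, was at 2.14 and -1.85, or -0.61 in Tim4KO without Tim4KO naive 1. Its interaction passed the threshold without WT ID8 3 (4.39, edgeR adjusted p = 0.0196) and in no other fit that left out 1 library. The call of Ccl12 in WT (edgeR adjusted p = 0.0492) was lost without WT naive 1 (0.0852), WT naive 2 (0.0822), WT naive 3 (0.143) or WT ID8 2 (0.208). The count of genes called for the interaction was 73 without a filter on low counts, 368 without WT ID8 3, 3 without Tim4KO naive 1 and 2 with the background covariate.

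**Figure D5:**
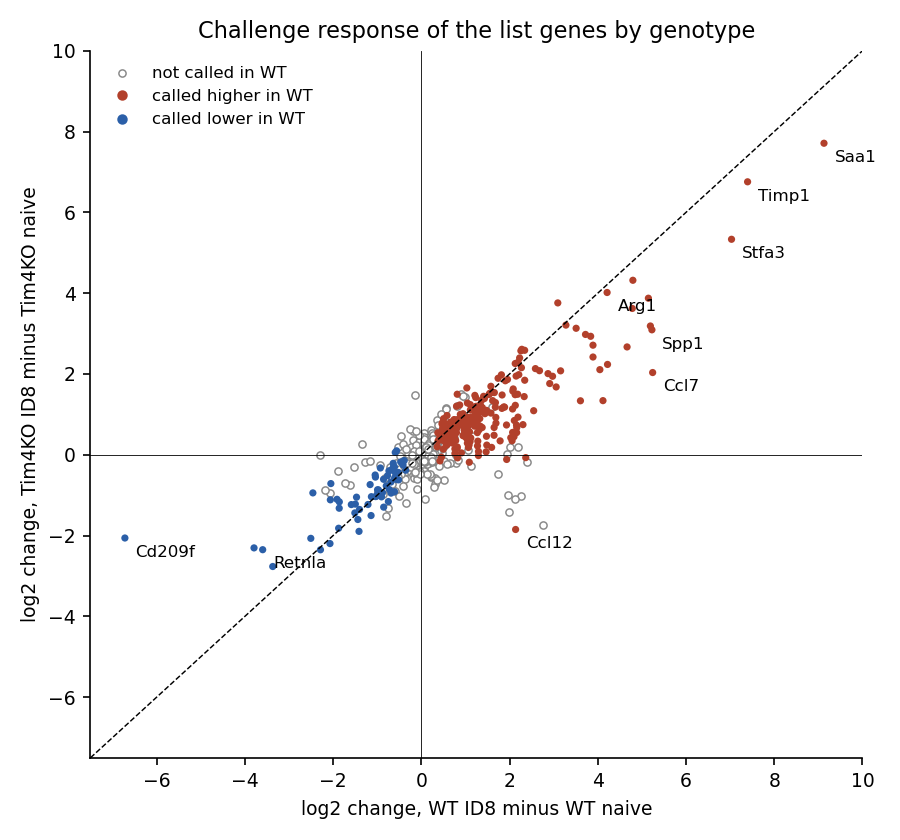
Log2 change with challenge in Tim4KO macrophages (y axis) against that in WT macrophages (x axis) for the tested list genes other than Timd4, filled where called in WT. The dashed line marks equal changes. Saa1, Timp1, Stfa3 and Arg1 are far above 0 in both genotypes, and Ccl12 is above 0 in WT and below 0 in Tim4KO cells.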

How the data were processed

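Bulk mRNA was sequenced from 12 sorted macrophage samples (WT and Tim4KO, naive and ID8, 3 libraries each). The deposited values are raw gene counts, 1 table for the series. The submitters' processing notes name STAR 2.5 and FastQC, while counting tool, strand setting and the role of the 2 builds named there are not given in the sources used here, so no gene coordinates from the counts are printed. Reads of a gene and an overlapping or antisense neighbour cannot be told apart. Symbols came from GENCODE vM21 for 52029 of 57010 genes.

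Counts were fitted with edgeR 4.0.16 (R 4.3.3, limma 3.58.1): TMM scaling, filterByExpr, robust quasi-likelihood, 1 mean per group over all 12 libraries with 8 residual degrees of freedom, and Benjamini-Hochberg adjustment over all 15943 genes tested. A gene is called at an adjusted p under 0.05. SE is the log2 change over the square root of F. DESeq2 1.42.0, limma voom, other scalings, no filter, the 6 WT libraries alone, a replicate block, a receptor background covariate and leaving out libraries were alternatives. The PCR-amplified counts carry no molecular identifiers per the labels' protocols, so counting intervals (95%, exact) cover counting error only. Data were also simulated for the WT comparison, with 200 changed genes among 15943 genes. In them, 56 of 100 genes with a log2 change of 1 and 100 of 100 with 2 were recovered. The comparison itself called 5067 genes, far more than were simulated as changed. These shares therefore describe the simulation and do not give the recovery in these libraries.

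Genes named are Timd4, the 12 largest increases and 12 largest decreases among called genes (mean raw WT count 50 or more, a proper symbol, no overlap), and, per list, its first 3 members and up to 5 called members, with further members by value. Some list members are not reported here. Members and lists were chosen with earlier results of these data known. The labels give replicate numbers but state no pairing, and the main fit used none. A block on these numbers was run as an alternative. Deviations from the group means correlated in each same-numbered WT pair (0.42, 0.10 and 0.19), although naive 2 and ID8 3 correlated at 0.23. Promoter windows are RefSeq's, build GRCm38.p6, matched by symbol.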

Additional observations from a re-analysis of the deposited data

How the results depend on the processing

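Of 328 named genes called, 326 kept their direction under every alternative run, with Ccne1 and Atp7b the exceptions. Of 225 not called, 133 changed sign under 1 alternative or more, and Ccna2 and Birc5 were then called the other way. On leaving out 1 library, Ccna2 ranged from -2.21 (without WT ID8 3) to 2.62, Birc5 from -2.19 (without WT ID8 3) to 2.76, and Atp7b from -10.43 to 0.052 (without WT naive 1). With the receptor background covariate Ccne1 was at -0.056. Of the 328, 244 were called in each fit that left out a WT library. Of all 328 calls, the covariate lost 78, the 6 WT libraries alone 61, upper-quartile scaling 59, DESeq2 11 and limma voom 18. The cause was not tested, other than that 6 libraries leave fewer samples. With the 6 WT libraries alone 3102 genes were called, 1858 higher and 1244 lower. Upper-quartile scaling gave 1799 higher and 3508 lower, and the covariate 2306 higher and 1156 lower. Leaving out 1 WT library gave 3362 to 7230 calls, 2299 to 3718 higher and 1063 to 3512 lower. The interaction gave 73 calls without a filter, 2 with the covariate, 9 by DESeq2, and 0 to 368 on leaving out 1 library. With the replicate number as a block, 4619 genes were called (3022 higher, 1597 lower). With it 22 named calls were lost and 7 gained, and no named call changed direction. Upper-quartile scaling turned the medians of 6 lists negative: alternative activation (-0.11), cholesterol efflux (-0.17), identity (-0.22), pattern recognition (-0.19), sterol synthesis (-0.10) and transcription factors (-0.16). Under 5 CPM most calls were decreases, and the receptor background was also lower in the challenged WT libraries. Their parts cannot be told apart at this depth.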

Other observations

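Several genes outside the lists changed by large amounts at substantial levels; they were chosen after their values were seen and are given as values. Anpep (CD13), an aminopeptidase of myeloid cells, was at 14.8, 15.4 and 13.3 CPM in naive and 183, 204 and 273 in challenged libraries (log2 change 3.92, SE 0.18, edgeR adjusted p = 1.82e-08). Anxa2, a phospholipid-binding annexin, was at 331, 250.2 and 218 and then 1449.9, 2154 and 1320.0 (log2 change 2.62, SE 0.20, edgeR adjusted p = 1e-06), and the calcium-binding S100a6 at 74.3, 68.4 and 41.6 and then 346, 371 and 384 (log2 change 2.58, SE 0.20, edgeR adjusted p = 1.53e-06). Igf2r, which sorts enzymes to lysosomes, rose by 2.22. Of structural genes, Lmna (lamin A) rose by 2.61, Vim (vimentin) by 1.48 and the galectin Lgals3 by 1.37 on the log2 scale.

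Among genes that fell, Apoc1, which lies in the same apolipoprotein cluster as Apoe, went from 145, 221 and 234 CPM to 30.8, 47.4 and 34.8 (log2 change -2.41, SE 0.34, edgeR adjusted p = 0.000482). Selenop, a selenium carrier, went from 1043, 914 and 1152 to 226, 249.5 and 407 (log2 change -1.82, SE 0.21, edgeR adjusted p = 4.32e-05), Trf (transferrin) from 7199.7, 8717 and 8816 to 2518, 2923 and 2315 (log2 change -1.67, SE 0.14, edgeR adjusted p = 2.1e-06), and the secreted protease inhibitor Cst3 from 1863, 2120.0 and 2034 to 854, 879 and 901 (log2 change -1.19, SE 0.13, edgeR adjusted p = 1.71e-05). Tmem176a changed by -2.20. All 12 genes named to this point were called in each fit that left out a WT library.

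Atp7b, a copper transporter, was at 1313, 1.402 and 0.489 CPM in the naive and 0.4604, 0.172 and 2.099 in the challenged libraries. Its call rested on WT naive 1, without which the log2 change was 0.052.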
